A study of Arabidopsis thaliana with 27 samples.

Results

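Stamens of Arabidopsis thaliana plants that carry mARF8, a genomic copy of the auxin response factor gene ARF8 with a mutated miR167 site, were compared with wild-type stamens. All stamen libraries whose titles name mARF8 or wild type were taken, which gave 4 mARF8 and 3 wild-type libraries, 7 of the 27 in the series. Polyadenylated RNA was sequenced, and the values are reads per TAIR locus. Both groups are in the Columbia background, and the stamens came from stage 11 buds of 1.5 to 1.8 mm, collected 1 to 3 h after dawn from plants grown in cycles of 14 h light and 10 h dark. By their titles, mARF8 1 and mARF8 3 are line 3B, mARF8 2 is line 4B, and mARF8 4 is T1s, with no line named. T1s was read here as a pool of several plants with that transgene, which the title does not state. Going by the titles, mARF8 2 is the only library of line 4B. The genotype tag names line 4B for all 4, against the titles, so that which line a library came from rests on the title alone. The titles name line 3B, line 4B and T1s apart. The labels do not say whether the 3 wild-type libraries, or the 2 of line 3B, came from separate plants or harvests. The spread behind the p-values was estimated from 9 stamen libraries, these 7 and 2 of arf6arf8 in the same background and at the same stage, which enter no comparison here. The p-values measure only the spread between these libraries, part of which may be technical.

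Auxin response factors are transcription factors that bind auxin response elements in the promoters of their targets. The microRNA miR167 pairs with the transcripts of ARF8 and of its close relative ARF6 and leads to their cleavage, so a copy without the pairing site escapes this control. In the anther, pollen grains mature in locules lined by the tapetum, a nurse layer that feeds them and makes their coat, while the endothecium outside it thickens its walls before the anther opens.

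The mature miR167 sequences and the sites in ARF8 and ARF6 are shown because the site in ARF8 is what the transgene alters. They were read 5′ to 3′ from the RefSeq TAIR10.1 assembly. Capitals mark the seed, bases 2 to 8, in the microRNAs, and the bases that face the seed in the sites. The altered bases of the transgene were not analysed here.

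miR167a-5p: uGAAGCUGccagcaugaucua

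miR167b: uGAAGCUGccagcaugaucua

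miR167d: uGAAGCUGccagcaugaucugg

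miR167c-5p: uAAGCUGCcagcaugaucuug

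ARF8 site: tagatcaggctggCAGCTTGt

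ARF6 site: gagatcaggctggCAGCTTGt

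The first 3 microRNAs share a seed, and the seed of miR167c-5p differs from it. The ARF8 site lies in coding sequence of exon 13 of 14, on the plus strand at chr5:14633841-14633861. The ARF6 site lies in coding sequence of exon 14 of 15, on the minus strand at chr1:10686478-10686498. Against the full complement of miR167a-5p the ARF8 site has 3 mismatches and the ARF6 site has 4, in each case with 1 of them facing the seed.

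ARF8 (AT5G37020) was higher in each mARF8 library than in any wild-type library. It stood at 64.3, 74.6 and 55.9 CPM (the read count scaled to the size of its library) in wild type 1 to 3, and at 483, 504, 263 and 463 CPM in mARF8 1 to 4. The groups did not overlap, and mARF8 3 was the lowest of the 4, at 4.05 times the wild-type mean against 7.13 to 7.77 times in the others. The log2 fold change was 2.72 (SE 0.24, edgeR quasi-likelihood test, adjusted p = 0.000472). Reads from the transgene and from the endogenous gene fall on the same locus and cannot be told apart. ARF6 (AT1G30330) stood at 83.6, 92.6 and 94.3 CPM in wild type against 74.3, 76.9, 74.9 and 68.4 CPM in mARF8. Its log2 fold change of −0.29 (SE 0.09, adjusted p = 0.0373) did not pass without wild type 1, 2 or 3 or mARF8 1 or 4, where the highest adjusted p was 0.0924. The primary transcript of MIR167a (AT3G22886) stood at 2.21, 2.83 and 1.24 CPM in wild type against 0.698, 1.59, 0.409 and 0.533 CPM in mARF8, with groups that overlapped. Its log2 fold change of −1.45 (SE 0.49, adjusted p = 0.0465) did not pass without any 1 of the libraries other than mARF8 2, with a highest adjusted p of 0.174.

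**Figure D1:**
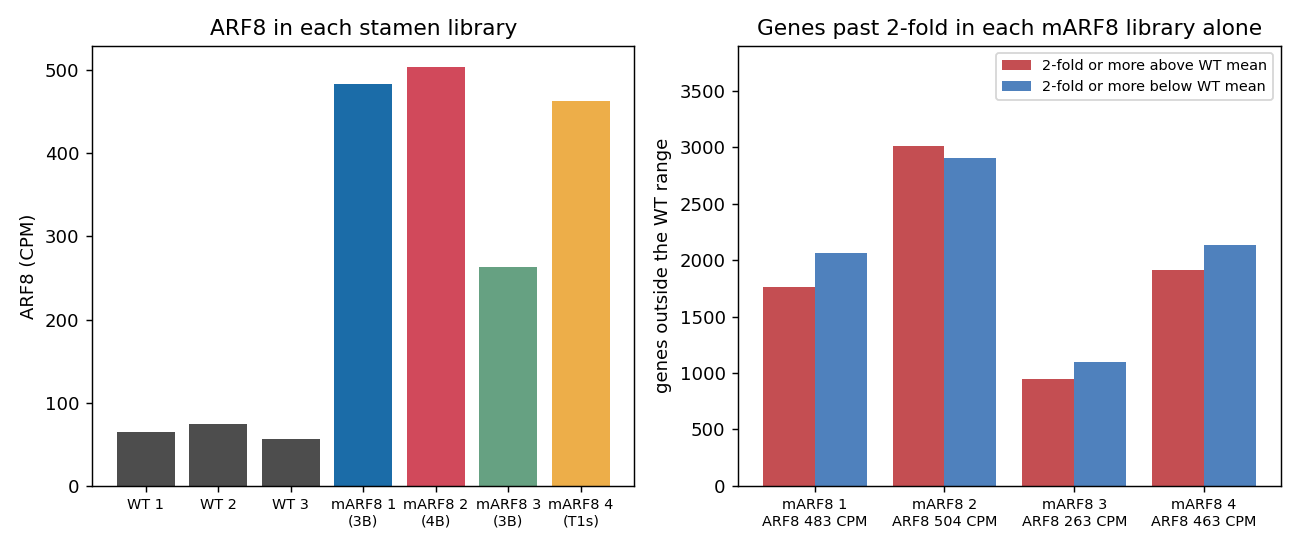
Left, ARF8 in CPM in each of the 7 stamen libraries, 1 bar per library. Right, number of genes 2-fold or more from the wild-type mean and outside the range of the 3 wild-type libraries, for each mARF8 library alone. The lowest ARF8 bar and the fewest genes are those of mARF8 3, and mARF8 2 has the highest bar and the most genes. In between, mARF8 1 has a higher ARF8 bar than mARF8 4 but fewer genes.

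Total counts ran from 3989223 to 5512416 in wild type and from 5125510 to 10104891 in mARF8, with mARF8 3 the deepest, and 3 counts in a library were worth 0.307 to 0.827 CPM. All 4 stamen identity genes were detected in every library. AG lay between 271 and 348 CPM in wild type and between 127 and 162 CPM in mARF8, a fall described below. PI (AT5G20240) lay between 573 and 839 CPM and AP3 (AT3G54340) between 278 and 367 CPM over the 7 libraries. Of 9 carpel and ovule markers, 5 passed the filter on low counts and 2 of these, SPT and SHP2, fell (1 without wild type 1, wild type 2 or mARF8 1). The summed level of the 9 was 25.5 to 25.9 CPM in wild type and 14.2 to 19.4 CPM in mARF8, and INO, HEC1 and HEC2 reached at most 0.533 CPM in any library. The 4 sepal and inflorescence markers summed to 2.76 to 5.10 CPM in wild type and 2.86 to 7.08 CPM in mARF8, and no member was called, with LFY at 0 in the 4 mARF8 libraries. Wild type 3 and mARF8 4 carry the highest library numbers in the labels (28 and 27, against 6 to 17 for the others), and 7 wounding and touch genes set them apart. Their summed level was 9.19 CPM in wild type 3 and 15.6 CPM in mARF8 4, against 97.1 to 333 CPM in the other 5 libraries. The 9 heat shock genes on the list summed to 20.4 to 76.7 CPM in wild type and to 118, 533, 61.9 and 121 CPM in mARF8 1 to 4, and 1 of the 7 tested, AT3G46230, was called. Without mARF8 3, 6 of the 7 were called higher, and without any 1 of the other 6 libraries none was. Their part in the results below was not tested.

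Of 18828 genes tested, 3838 were higher in mARF8 stamens (20.4%) and 3123 were lower (16.6%), 37.0% in all, at an adjusted p under 0.05. The median log2 fold change was 0.80 among the genes called higher and −1.12 among those called lower, against 0.09 over all genes tested. Past 4-fold there were 383 genes higher and 720 lower, and past 16-fold 92 and 103. Of 302 genes on the 26 lists below, 236 passed the filter and were tested. In 24.2% of all genes tested the 4 mARF8 libraries all lay above the 3 wild-type libraries, and in 21.1% they all lay below. The counts rest on few libraries. Leaving out wild type 1 gave 1741 higher and 1469 lower, leaving out wild type 3 gave 1311 and 1584, and leaving out mARF8 1 gave 2025 lower. With the 5 low-numbered libraries, which leaves out wild type 3 and mARF8 4, they were 757 and 568, and 1307 of those calls were among the 6961 found with all libraries. With the spread taken from the 7 libraries alone, 2747 were higher and 2668 lower.

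**Figure D2:**
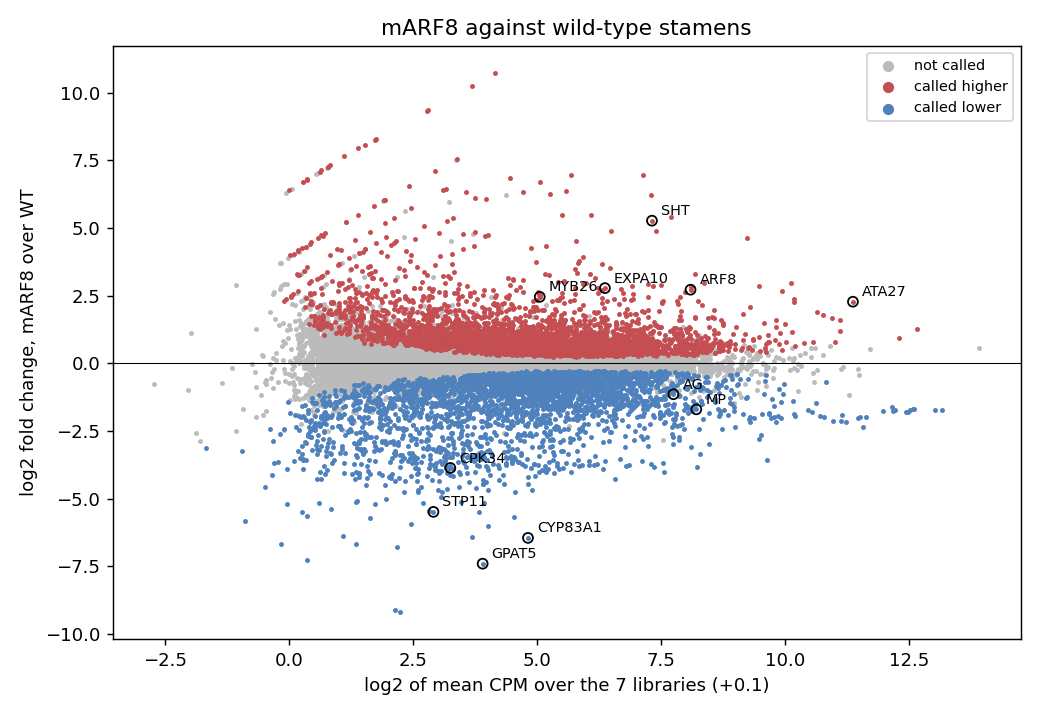
Each point is 1 of 18828 genes, with its mean level over the 7 libraries on the x axis (log2 CPM) and its log2 fold change of mARF8 over wild type on the y axis; red and blue points passed the adjusted p threshold. Circled genes are named in the text, among them ARF8 at 2.72 and GPAT5 at −7.41, and the lines of points at the upper left are genes with almost no counts in wild type, whose fitted fold change depends on the prior count.

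Each mARF8 library was then set alone against the 3 wild-type libraries, which has no replicate and no test. A gene was counted when it lay 2-fold or more from the wild-type mean and outside the wild-type range. In mARF8 1, with ARF8 at 483 CPM, 1764 genes were higher (9.37%) and 2065 lower (11.0%). In mARF8 2, with ARF8 at 504 CPM, 3013 were higher (16.0%) and 2906 lower (15.4%). In mARF8 4, with ARF8 at 463 CPM, 1910 were higher (10.1%) and 2137 lower (11.4%). In mARF8 3, with ARF8 at 263 CPM, 943 were higher (5.01%) and 1097 lower (5.83%), and it was the deepest library. The library with the least ARF8 was thus also the one with the fewest genes past 2-fold, and the one with the most ARF8 had the most, over 4 libraries only. The 2 in between went the other way, since mARF8 1 had more ARF8 than mARF8 4 but fewer genes in both directions. The ARF8 levels of mARF8 1 and mARF8 2 were close, at 483 and 504 CPM, while their gene counts were far apart. Both mARF8 1 and mARF8 3 are titled line 3B, and they differed more from each other in these counts than mARF8 1 did from mARF8 4. Of the genes called higher, 65.1% were closest to wild type in mARF8 3 and 54.0% farthest from it in mARF8 2, and of the genes called lower, 80.4% and 69.0%. In all 4 libraries 560 genes were higher and 889 lower, while 1620 were higher and 1271 lower in 1 library alone. The Pearson correlation with the wild-type libraries across genes was 0.921 to 0.949 for mARF8 3 and 0.722 to 0.780 for mARF8 2, against 0.967 to 0.980 among wild-type libraries; genes are not independent replicates, and this is a description.

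Among the other auxin response factors, MONOPTEROS (MP, also ARF5), which acts in organ formation, fell, and several others rose. Of 15 ARF family genes tested, ARF8 included, 6 were higher and 3 lower, with a median log2 fold change of 0.37, beside 20.4% and 16.6% of all genes; 3 were higher without wild type 3. MP (AT1G19850) stood at 541, 404 and 522 CPM in wild type against 114, 201, 153 and 133 CPM in mARF8. The groups lay well apart, and it fell by 1.70 on the log2 scale (SE 0.20, adjusted p = 0.00142). ETT (AT2G33860, also ARF3), which patterns floral organs, stood at 29.2, 31.9 and 25.1 CPM in wild type against 88.1, 100.1, 44.0 and 66.1 CPM in mARF8, lowest in mARF8 3. It rose by 1.37 (SE 0.26, adjusted p = 0.00687). ARF19 fell by 0.78 (SE 0.18, adjusted p = 0.0130), and ARF1 rose by 0.59 (SE 0.12, adjusted p = 0.00840).

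Of 15 genes of auxin synthesis and transport tested, 4 were higher and 1, TAR2, was lower, with a median of 0.60, beside 20.4% higher and 16.6% lower over all genes. The share that was higher is near that of all genes. Without mARF8 3 or without mARF8 4, 2 were lower. Without wild type 3, 2 were higher and TAR2 was not called, and TAR2 was not called without wild type 1 either. The exporter gene ABCB1 (AT2G36910) stood at 161, 160.0 and 138 CPM in wild type against 397, 340, 299 and 329 CPM in mARF8. No library of either group came near the other group, and the rise was 1.16 (SE 0.13, adjusted p = 0.00108). The importer AUX1 rose by 0.76 (SE 0.14, adjusted p = 0.00539), ABCB19 by 0.76 (SE 0.18, adjusted p = 0.0142) and the exporter PIN3 by 1.57 (SE 0.38, adjusted p = 0.0149). ABCB19 and PIN3 were not called without wild type 3, nor ABCB19 without wild type 1, at adjusted p up to 0.0729. Of the 6 auxin receptor genes, TIR1 and AFB5 were called higher, and neither was without wild type 1 or wild type 3, and 1 was without mARF8 1 or mARF8 4. Of 15 SAUR genes, short auxin-induced genes, 5 passed the filter and 2 of these were higher, or 1 when any library other than mARF8 3 was left out. AT1G29450 had 1 count in wild type and 59 in mARF8, which is 28.5 times as much per library size (95% counting interval from 4.92 to 1150) at an adjusted p of 0.00772. SAUR genes are near copies of each other, and how reads that match several copies were counted is not given.

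Alpha-expansins, which loosen cell walls during growth, were mostly higher. Of 12 tested, 8 rose and 1, EXPA16, fell, with a median of 1.22 against 0.09 over all genes. The shares over all genes were 20.4% higher and 16.6% lower. Without wild type 3, 5 rose, and the call of EXPA16 was lost without wild type 1, 2 or 3, mARF8 1 or mARF8 4. EXPA10 (AT1G26770) stood at 14.1, 19.1 and 23.3 CPM in wild type against 145, 225, 58.0 and 91.9 CPM in mARF8. EXPA1 (AT1G69530) stood at 145, 156 and 207 CPM in wild type against 579, 652, 359 and 564 CPM in mARF8. EXPA4 (AT2G39700) stood at 25.9, 27.0 and 27.8 CPM in wild type against 87.5, 88.7, 79.5 and 63.4 CPM in mARF8. In each of the 3 genes the groups were apart. On the log2 scale the changes were 2.78 (SE 0.46, adjusted p = 0.00407) for EXPA10, 1.67 (SE 0.22, adjusted p = 0.00198) for EXPA1 and 1.57 (SE 0.14, adjusted p = 0.000475) for EXPA4. The mean of the list lay 1.45, 1.32, 0.61 and 1.42 above wild type in mARF8 1 to 4 on the log2 scale.

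Genes that carry pollen tube growth were lower. Of 27, which all passed the filter, 25 fell and none rose, with a median of −1.97. The shares over all genes were 16.6% lower and 20.4% higher. Of the 27, 12 fell without wild type 1 or without wild type 3, and 5 with the low-numbered libraries alone. The list was chosen with late pollen genes known to be low in these libraries, so its direction is no independent evidence. The receptor kinase gene ANX1 (AT3G04690), which keeps the growing tube intact, stood at 86.6, 57.1 and 87.6 CPM in wild type against 12.2, 7.26, 25.1 and 16.2 CPM in mARF8. Its close relative ANX2 (AT5G28680) stood at 38.1, 36.8 and 45.7 CPM in wild type against 1.05, 0.177, 6.44 and 2.13 CPM in mARF8. Both genes were lowest in mARF8 2 and nearest to wild type in mARF8 3. ANX1 fell by 2.32 (SE 0.35, adjusted p = 0.00293) and ANX2 by 3.86 (SE 0.60, adjusted p = 0.00327). The calcium-dependent kinase gene CPK34 (AT5G19360) stood at 23.4, 18.7 and 19.1 CPM in wild type against 0, 0.177, 3.58 and 0.889 CPM in mARF8, and fell by 3.87 (SE 0.73, adjusted p = 0.00642). CSLD1 (AT2G33100), a wall synthase gene, fell by 2.61 (SE 0.28, adjusted p = 0.000931), and the receptor kinase gene PRK4 fell by 1.89 (SE 0.28, adjusted p = 0.00293). VGD1 (AT2G47040), a pectin methylesterase gene, stood at 10200, 8171 and 10530 CPM in wild type against 2772, 706, 5200 and 2371 CPM in mARF8. Its call (log2 fold change −1.80, SE 0.52, adjusted p = 0.0276) was lost without wild type 1, 2 or 3 or mARF8 1 or 4, at adjusted p up to 0.0764. The mean log2 difference of the 27 genes from wild type was −2.85, −4.12, −1.36 and −2.50 in mARF8 1 to 4. In whole stamens, fewer pollen cells and less RNA per pollen cell cannot be told apart.

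Most transcription factors of pollen and genes of the sperm cells tested were lower. These lists too were chosen with earlier results of these data known, so their direction is no independent evidence. Of 10 pollen regulators tested, 7 fell and none rose (4 without wild type 1 or without wild type 3). Of 5 sperm cell genes tested, 4 fell (2 without wild type 1 or without wild type 3). The shares over all genes tested were 16.6% lower and 20.4% higher. AGL65 (AT1G18750), a MADS-box gene of pollen, stood at 28.4, 24.8 and 28.6 CPM in wild type against 4.36, 2.83, 8.89 and 4.44 CPM in mARF8. The sperm cell regulator DAZ1 (AT2G17180) stood at 26.5, 19.3 and 27.8 CPM in wild type against 4.71, 0.708, 9.20 and 3.38 CPM in mARF8. The groups were apart in both, with log2 fold changes of −2.35 (SE 0.31, adjusted p = 0.00196) and −2.36 (SE 0.52, adjusted p = 0.0107). HAP2, which sperm need to fuse with the egg, fell by 1.53 (SE 0.34, adjusted p = 0.0108). WRKY34 was not called and stood at a mean of 20.8 CPM in wild type and 22.7 CPM in mARF8 (adjusted p = 0.716). DUO1, the upstream regulator of DAZ1, stood at 10.9 and 6.34 CPM (adjusted p = 0.107).

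**Figure D3:**
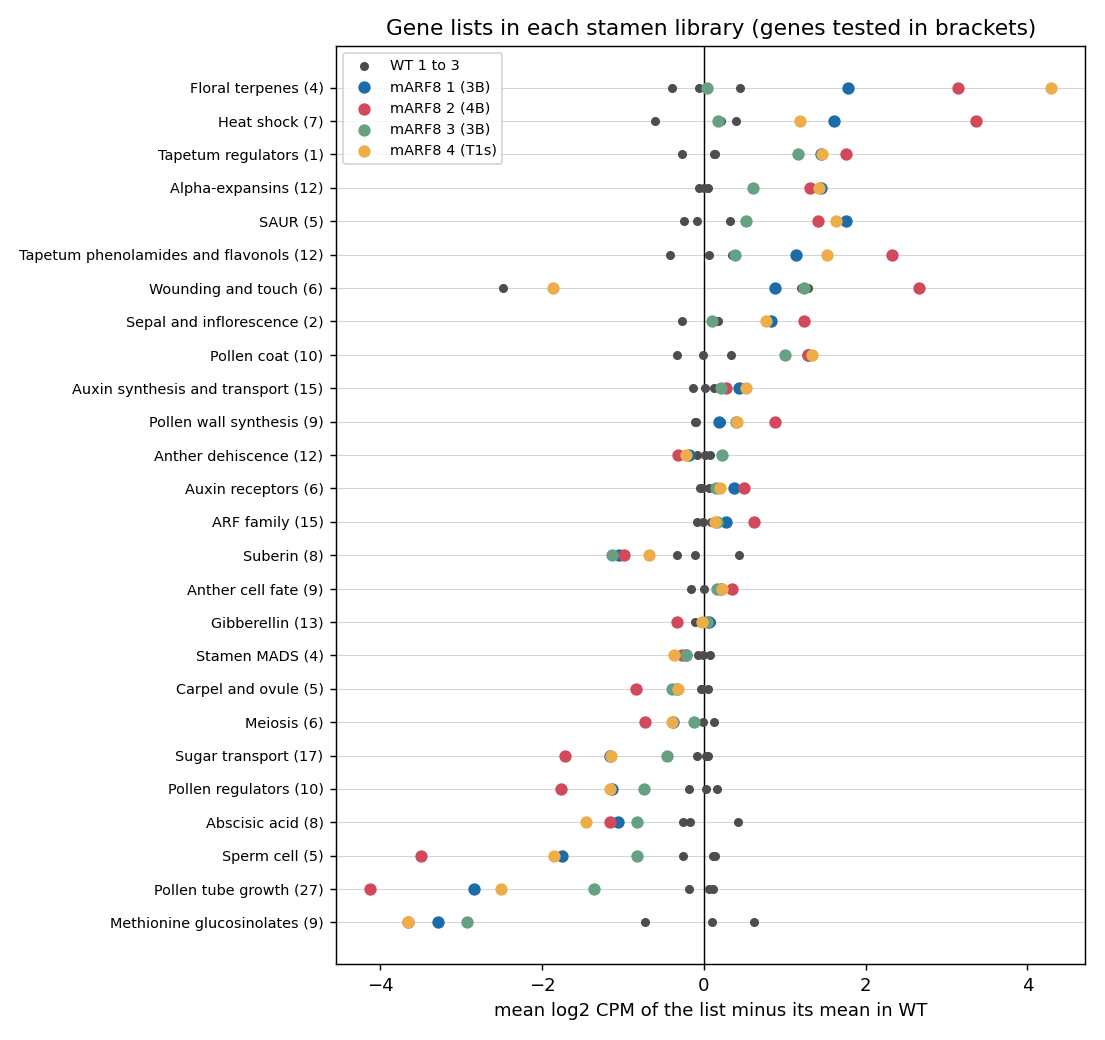
Each row is a gene list with the number of genes tested in brackets, ordered by median fold change, and each point is the mean log2 CPM of its genes in 1 library minus their mean in wild type (x axis, log2 units). The coloured points are the 4 mARF8 libraries and the grey points the 3 wild-type libraries; the pollen tube list runs from −1.36 in mARF8 3 to −4.12 in mARF8 2, and wild type 3 stands apart from wild type 1 and 2 for wounding and touch.

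Of 10 pollen coat genes, products of the tapetum that were all tested, 6 rose, 4 did not pass and none fell, beside 20.4% and 16.6% of all genes. Without wild type 1, without wild type 3 or with the low-numbered libraries, 2 rose. Their summed level was 18690 to 25660 CPM in wild type and 30560 to 45000 CPM in mARF8. ATA27 (AT1G75940), a tapetum glycosidase gene, stood at 851, 1009 and 614 CPM in wild type against 3564, 5114, 2857 and 4447 CPM in mARF8. EXL4 (AT1G75910), an extracellular lipase gene of the pollen coat, stood at 640, 748 and 476 CPM in wild type against 2125, 2880, 1635 and 2719 CPM in mARF8. Neither gene overlapped between the groups, and the rises were 2.28 (SE 0.27, adjusted p = 0.00141) and 1.91 (SE 0.25, adjusted p = 0.00196). The coat oleosin gene GRP17, at a mean of 12070 CPM in wild type and 17900 CPM in mARF8, did not pass (adjusted p = 0.178), nor did GRP18 (adjusted p = 0.991). Of the tapetum regulators DYT1, TDF1, AMS, MYB80 and MS1, AMS alone passed the filter, at 39.0 to 52.1 CPM in wild type and 106 to 160 CPM in mARF8. DYT1, TDF1 and MYB80 had no count in any of the 7 libraries.

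Of 12 genes of tapetum phenolamides and flavonols tested, which are phenolic compounds of the pollen surface, 8 rose and 1 fell. The shares over all genes were 20.4% higher and 16.6% lower. Leaving out wild type 1 left 3 that rose, leaving out wild type 3 left 1, and leaving out mARF8 1 left 5. SHT (AT2G19070), which joins hydroxycinnamic acids to spermidine, stood at 5.24, 12.5 and 2.73 CPM in wild type against 137, 634, 29.2 and 292 CPM in mARF8. It rose by 5.27 (SE 1.07, adjusted p = 0.00830), and the mARF8 libraries spread more widely than the wild-type ones. The methyltransferase gene TSM1 rose by 4.88 (SE 1.19, adjusted p = 0.0154) but not without wild type 1 or wild type 3, at adjusted p up to 0.0658. TT7 (AT5G07990), a flavonoid hydroxylase gene, was the member that fell, by 0.81 (SE 0.18, adjusted p = 0.0120), with its call lost without wild type 1 (adjusted p = 0.0521). Of 9 pollen wall synthesis genes tested, 4 rose and 1 fell, beside 20.4% and 16.6% of all genes. Only 1 rose without wild type 1 or without wild type 3, and 2 rose without mARF8 4. The summed level of the 13 genes on that list was nonetheless lower, at 1297 to 1447 CPM in wild type and 793 to 1118 CPM in mARF8. SWEET8 (AT5G40260), a sugar exporter gene needed for the pollen wall, stood at 52.7, 78.2 and 63.8 CPM in wild type against 177, 193, 185 and 172 CPM in mARF8. Its rise of 1.48 (SE 0.15, adjusted p = 0.000681) was even across the 4 libraries. CALS5, the callose synthase gene of the pollen wall, fell by 1.86 (SE 0.55, adjusted p = 0.0294), a call lost without wild type 1, 2 or 3 or mARF8 1 or 4.

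Of 12 genes of anther opening tested, 3 rose (NST1, MYB26 and OPR3) and 2 fell (MYB108 and ADPG1), shares close to the 20.4% and 16.6% of all genes. Without mARF8 3, 4 fell, and without wild type 1 or without wild type 3, 1 fell. NST1 (AT2G46770) and MYB26 (AT3G13890), regulators of wall thickening in the endothecium, did not overlap between the groups, at 24.3 to 32.0 against 85.0 to 135 CPM and at 6.21 to 11.3 against 37.5 to 69.4 CPM. Neither was ordered like ARF8: NST1 stood at 135, 85.0, 123 and 91.9 CPM in mARF8 1 to 4. MYB108 (AT3G06490), a jasmonate-induced regulator of anther opening, stood at 13.5, 18.5 and 9.43 CPM in wild type against 0, 0.531, 1.23 and 0.178 CPM in mARF8. It fell by 4.56 (SE 0.55, adjusted p = 0.00144). ADPG1, a polygalacturonase gene of cell separation, fell by 1.07 (SE 0.27, adjusted p = 0.0175), a call lost without wild type 1 or wild type 3 (adjusted p up to 0.0641). The stamen growth regulators MYB21 (adjusted p = 0.268) and MYB24 (adjusted p = 0.373) were not called, with log2 fold changes of 0.39 and −0.36. Of 9 early anther cell fate genes tested, BAM1 was higher, and it was not called without wild type 3 (adjusted p = 0.0585), while 2 were higher without wild type 2 and 3 without mARF8 3.

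AGAMOUS (AG, AT4G18960), the organ identity gene of stamens and carpels, fell. It stood at 318, 271 and 348 CPM in wild type against 138, 127, 162 and 138 CPM in mARF8, with a log2 fold change of −1.14 (SE 0.13, adjusted p = 0.00108). The call held when any 1 library was left out, at adjusted p up to 0.00870. The partner genes AP3, PI and SEP3 were not called, with log2 fold changes of −0.17, 0.31 and −0.06.

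Of 17 sugar transport genes tested, 4 rose and 6 fell, beside 20.4% and 16.6% of all genes, so that the share that rose is near the background; without wild type 1 the counts were 2 and 3, and without wild type 3, 2 rose. STP11 (AT5G23270), a pollen tube hexose importer gene, stood at 11.9 to 20.6 CPM in wild type against up to 0.818 CPM in mARF8, with no count in mARF8 1 and 4. SWEET14 (AT4G25010), a sugar exporter gene, stood at 13.0, 27.6 and 6.46 CPM in wild type against 0.523, 0.531, 0.204 and 0.178 CPM in mARF8. Both were close to absent in mARF8, with log2 fold changes of −5.49 (SE 0.60, adjusted p = 0.000997) and −5.47 (SE 0.60, adjusted p = 0.00103). The cell wall invertase gene CWINV2 fell by 3.65 (SE 0.90, adjusted p = 0.0156), a call lost without wild type 1 (adjusted p = 0.0517), and cwINV4 fell by 1.81 (SE 0.43, adjusted p = 0.0137).

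Genes that make glucosinolates from methionine, sulfur-rich defence compounds, were lower in mARF8. Of 9 tested, 7 fell and none rose, with a median of −4.28, beside 16.6% lower and 20.4% higher over all genes. CYP83A1 (AT4G13770), a cytochrome P450 gene of the pathway, stood at 69.2, 34.8 and 89.9 CPM in wild type against 0.349, 0.177, 1.64 and 0.178 CPM in mARF8. MAM1 (AT5G23010), which elongates the methionine chain, stood at 30.1, 12.7 and 66.8 CPM in wild type against 0.523, 0.354, 0.920 and 0.178 CPM in mARF8. The wild-type libraries spread widely, yet the groups did not come near each other. CYP83A1 fell by 6.46 on the log2 scale (SE 0.54, adjusted p = 0.000410), and MAM1 was 64.1-fold lower (adjusted p = 0.00108). BCAT4 and CYP79F1 had no count in the 4 mARF8 libraries and were at least 83.4-fold and 89.0-fold lower, against 3 counts over the group (adjusted p = 0.00886 and 0.00883). These bounds, like the intervals, cover counting error only. Their regulator MYB28 was not called, at means of 9.43 and 5.89 CPM (adjusted p = 0.116). The mean log2 difference of the list from wild type was −3.28, −3.65, −2.92 and −3.66 in mARF8 1 to 4. Among the low-numbered libraries the difference was −2.97, and between wild type 3 and mARF8 4 it was −4.28.

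Of 8 suberin genes tested, which make the lipid barrier of roots and seed coats, 3 rose and 3 fell, with a median of 0.24. The shares over all genes were 20.4% higher and 16.6% lower. The suberin genes given in detail below are those that fell. Among the others, RWP1 and KCS20 lay 2.86 and 1.33 above wild type on the log2 scale in the low-numbered libraries. GPAT5 (AT3G11430), an acyltransferase gene, stood at 26.8, 60.8 and 15.6 CPM in wild type against 0, 0, 0.204 and 0.533 CPM in mARF8. The transporter gene ABCG6 (AT5G13580) lay between 17.63 and 42.3 CPM in wild type and stood at 0, 0.354, 0.716 and 0 CPM in mARF8. Each was near 0 in all 4 mARF8 libraries, with log2 fold changes of −7.41 (SE 0.75, adjusted p = 0.00108) and −6.43 (SE 0.57, adjusted p = 0.000472). The related gene ABCG20 fell by 2.20 (SE 0.21, adjusted p = 0.000581). Of 8 tested genes of abscisic acid, a hormone of drying and dormancy, 4 fell and none rose. Wild type 3 stood apart, with a summed level of 1077 CPM for the list against 443 and 471 CPM in wild type 1 and 2. The mean log2 difference of mARF8 from wild type was −0.80 among the low-numbered libraries. Between wild type 3 and mARF8 4 it was −1.87. NCED6, which cuts the carotenoid precursor, had 43 counts in wild type and 2 in mARF8, which is lower by a factor of 44.5 (95% counting interval from 11.6 to 379) at an adjusted p of 0.00218. COR47 (AT1G20440), a dehydrin gene, stood at 322, 353 and 578 CPM in wild type against 99.2, 95.1, 170.1 and 134 CPM in mARF8, and fell by 1.74 (SE 0.26, adjusted p = 0.00295).

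Of 4 floral terpene genes tested, TPS14 and TPS10 rose, and CYP76C1 and CYP71B31 were not called, beside 20.4% higher and 16.6% lower over all genes. TPS14 (AT1G61680), a linalool synthase gene, stood at 12.4, 18.0 and 8.44 CPM in wild type against 122, 103, 53.7 and 186 CPM in mARF8, and rose by 3.15 (SE 0.44, adjusted p = 0.00240). TPS10 (AT2G24210) stood at 6.34, 7.93 and 5.21 CPM in wild type against 51.3, 69.3, 13.6 and 272 CPM in mARF8. Both were highest in mARF8 4 and lowest in mARF8 3, and the call of TPS10 (adjusted p = 0.0154) was lost without wild type 1 or wild type 3. For the next 2 lists the shares over all genes were 20.4% higher and 16.6% lower. Of 13 gibberellin genes tested, 4 rose and 1 fell. None rose without wild type 1 or without wild type 3, and 2 rose without mARF8 1, 2 or 4. Of 6 meiosis genes tested, DMC1 fell by 0.91 (SE 0.26, adjusted p = 0.0249), a call lost without wild type 1, 2 or 3 or mARF8 1, and 2 genes fell without mARF8 3.

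The genes with the highest and lowest fold changes were named among called genes with a mean log2 CPM of at least 3 whose groups did not overlap, 12 in each direction. AT4G36430, a class III peroxidase gene, had no count in wild type and stood at 19.4, 78.3, 2.97 and 22.9 CPM in mARF8, at least 115-fold higher. Its call (adjusted p = 0.0171) was lost without wild type 3 (adjusted p = 0.0530) and with the low-numbered libraries. A second peroxidase gene, AT1G44970, stood at 2.48, 4.53 and 3.72 CPM in wild type against 252, 395, 85.9 and 355 CPM in mARF8. It rose by 6.21 (SE 0.60, adjusted p = 0.000616). UGT72E3 (AT5G26310), a glycosyltransferase gene of lignin precursors, stood at 0.276, 0.189 and 0.248 CPM in wild type against 25.3, 22.5, 8.18 and 24.9 CPM in mARF8, and rose by 6.33 (SE 0.69, adjusted p = 0.000995). KCS15 (AT3G52160), annotated as a 3-ketoacyl-CoA synthase, stood at 1.10, 0.756 and 0.248 CPM in wild type against 19.5, 274, 2.25 and 59.4 CPM in mARF8. It spread widely among the mARF8 libraries, and its call (adjusted p = 0.0204) was lost without wild type 1, 2 or 3. AT5G13380, annotated as a GH3 family gene, stood at 15.5, 263, 4.50 and 46.4 CPM in mARF8 and at up to 1.89 CPM in wild type. The others were AT2G17845, AT1G06100, AT5G16960, ENODL5, GulLO5, AT1G19230 and AT1G36150. The calls of AT5G13380, ENODL5 and AT1G36150 were lost without wild type 1, 2 or 3, that of AT1G36150 also without mARF8 4, and that of AT5G16960 without wild type 1 or 3.

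Among the 12 lowest genes, 4 are in the lists above: GPAT5, CYP83A1, ABCG6 and MAM1. AT5G14940, annotated as a major facilitator superfamily transporter, stood at 55.2, 41.6 and 60.6 CPM in wild type against 0.523, 0.354, 1.74 and 1.07 CPM in mARF8. It fell by 5.66 (SE 0.33, adjusted p = 0.000115). LOG3 (AT2G37210), a cytokinin-activating enzyme gene, stood at 24.3, 20.4 and 29.1 CPM in wild type against 0.698, 0, 1.33 and 0.355 CPM in mARF8, and fell by 5.13 (SE 0.46, adjusted p = 0.000472). The pectate lyase gene AT59 (AT1G14420) stood at 60.1, 84.8 and 53.9 CPM in wild type against 0.174, 0.708, 6.13 and 1.96 CPM in mARF8. AT59 was nearest to wild type in mARF8 3, as were CHX23 and AT3G17060, and it fell by 4.68 (SE 0.63, adjusted p = 0.00210). All 12 calls held when any 1 library was left out, with adjusted p up to 0.0196. AT1G01980, RGP4 and LEA18 complete the 12.

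**Figure D4:**
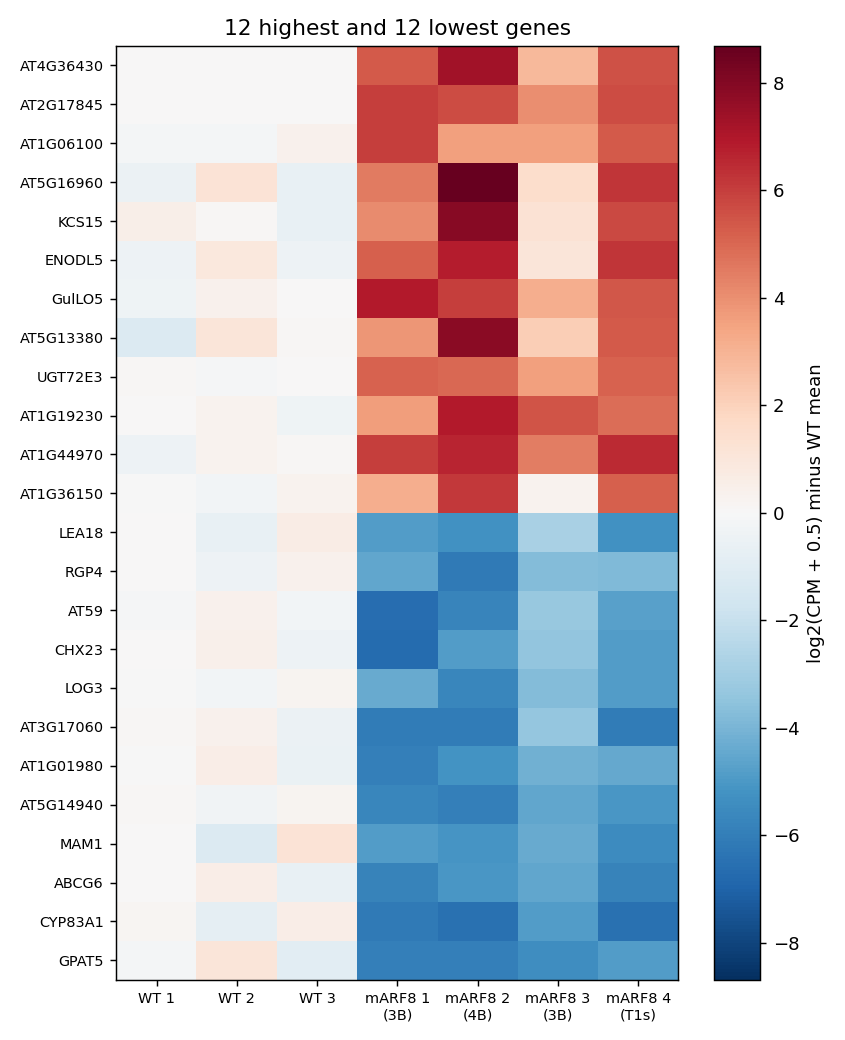
Colour shows log2(CPM + 0.5) minus its wild-type mean for the 12 highest genes (top, red) and the 12 lowest (bottom, blue), with 1 column per library. The column of mARF8 3 is the palest of the 4 mARF8 columns for most of these genes, with KCS15 at 2.25 CPM there and 274 CPM in mARF8 2.

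Families defined by annotated product, 26 of them, showed where calls gathered, beside the 20.4% higher and 16.6% lower over all genes. Of 309 ribosomal protein genes, 205 were higher and 6 lower (66.3% and 1.94%), with a median of 0.51, and of 38 proteasome subunit genes, 23 were higher and none lower, with a median of 0.34. These shifts were small and their counts moved with 1 library: 27 ribosomal and 2 proteasome genes were higher without wild type 3, and 69 and 3 without wild type 1. Leaving out mARF8 1 or mARF8 4 gave 130 and 119 ribosomal and 12 and 7 proteasome genes. The medians stayed between 0.40 and 0.59 for ribosomal and between 0.27 and 0.37 for proteasome genes when 1 library was left out. Of 74 chlorophyll-binding and photosystem genes, 50 were higher and none lower, with 22 without wild type 3 and 33 without wild type 1. Of 28 class III peroxidase genes, 15 were higher and 5 lower, with 7 higher without wild type 3 and 2 lower without wild type 1, wild type 3 or mARF8 1.

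On the lower side, 38 of 69 genes of pectin methylesterases and their inhibitors fell and 12 rose, with a median of −1.80. Without wild type 3, 25 fell and 7 rose. Of 5 pectate lyase genes, 4 fell, with 2 without wild type 1, wild type 3 or mARF8 4. Of 29 genes of defensins and small cysteine-rich peptides, 20 fell and 2 rose, with 7 that fell when wild type 1 was left out, 8 when wild type 3 and 13 when mARF8 1 was. In mARF8 1 to 4 this last family had a mean log2 difference of −2.42, −3.55, −1.04 and −1.95 from wild type. Many of these families have close copies that share sequence.

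**Figure D5:**
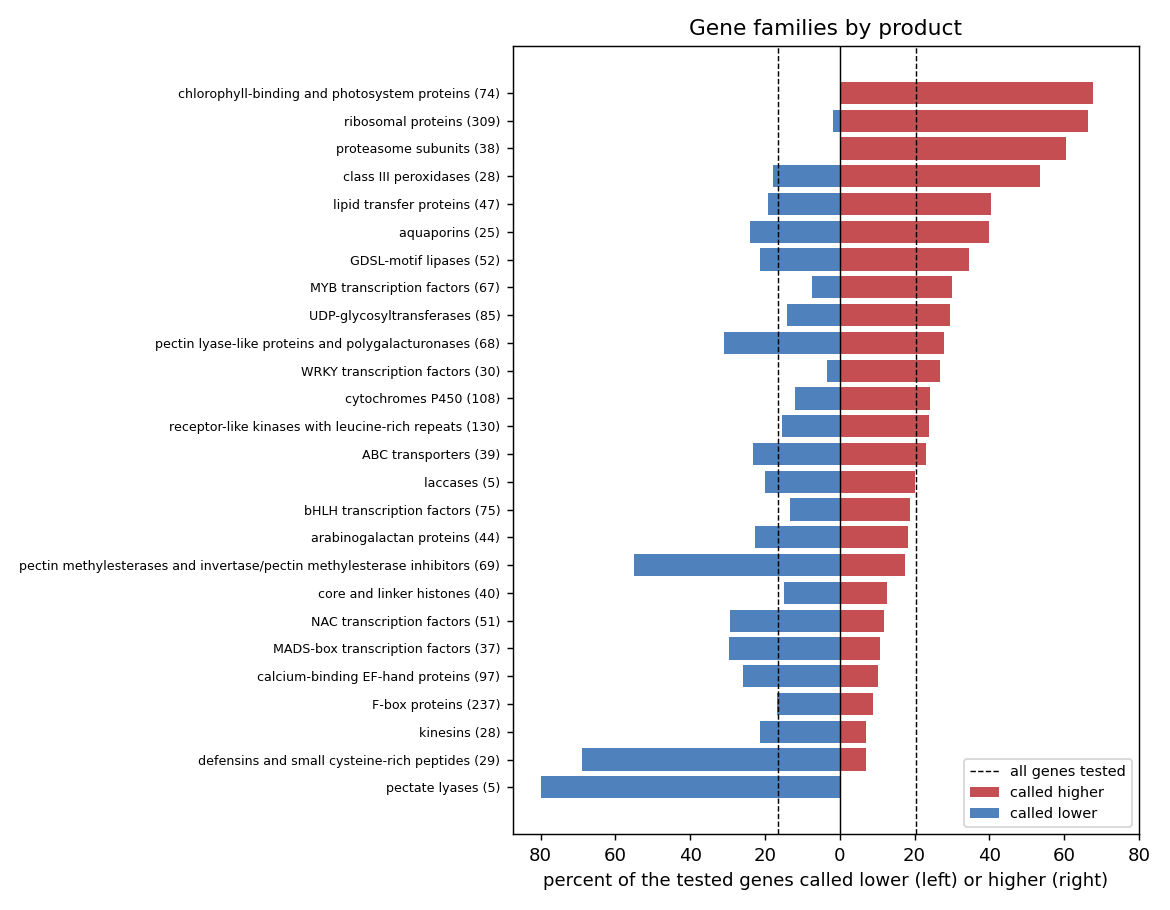
Share of each family's tested genes called higher (red, right) or lower (blue, left) in mARF8 stamens, with the number tested in brackets; dashed lines mark the shares over all genes tested, 20.4% higher and 16.6% lower. Ribosomal, proteasome and photosystem genes extend to the right with almost no lower calls, and defensins, pectate lyases and pectin methylesterases extend to the left.

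The auxin response element was searched in the 250 bases upstream of each gene's start. The letters TGTCTC, on either strand, occurred in 10.5% of the windows of all genes tested, in 10.5% of those called higher and in 10.4% of those called lower. Among genes past 4-fold they occurred in 8.71% of those higher and 12.5% of those lower. The variant TGTCGG occurred in 4.59% of all windows, 4.66% of those called higher and 3.93% of those called lower, and the G-box CACGTG in 7.43%, 7.05% and 8.10%. These are shares of windows that hold the letters, with no test.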

How the data were processed

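The deposited files hold raw read counts per TAIR locus, 33602 loci in each. TopHat2, HTSeq, edgeR and the TAIR10 build are named in the submitters' processing notes, with versions, order and strand setting not given in the sources used here. Per the labels' protocols, libraries were made with a TruSeq mRNA kit, and reads are single-end reads of 50 bases. Groups follow the sample titles.

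The counts went into edgeR 4.0.16 (R 4.3.3), with filterByExpr (minimum count 10, minimum total 15), TMM scaling and 1 quasi-likelihood fit of 9 stamen libraries, the 2 arf6arf8 libraries serving the estimate of spread only. This left 18828 genes, 6 residual degrees of freedom, and the biological coefficient of variation was 0.227. P-values were adjusted by Benjamini and Hochberg over all genes tested, and a gene was called under 0.05. SE is the size of the log2 change divided by the square root of F. Log2 CPM of lists and single libraries used a prior count of 2. DESeq2 1.42.0 was an alternative. The fit was tested on simulated data in which 200 of 18828 genes were changed. It found 42% of the 2-fold and 89% of the 4-fold changes, and 5.76% of its calls were false. Far fewer genes were changed there than were called here, so it does not check the fit under so broad a shift. Tables were made with Python 3.11.15 and pandas 2.3.3.

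The 26 gene lists (303 memberships used, 19 left out where the reference gives the locus no such symbol), the families and the alternatives were chosen with earlier results of these data known, and the family name patterns were corrected for letter case after a first look. The rule for named genes took ARF8, ARF6 and MIR167a, the 12 genes at each end of the fold changes as defined in the text, and the 3 called members of each list with the smallest adjusted p. Other genes of a list were named after their values were seen. Names come from RefSeq TAIR10.1, which matched 32835 loci. Upstream windows were read from that assembly, since no promoter table was used here.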

Additional observations from a re-analysis of the deposited data

Results flagged for a closer look

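Of 95 sets of 4 mARF8 values given Dixon's test at its 95% level, 5 had 1 library far from the other 3, and chance gives about 1 in 20. AT5G13380 stood at 263 CPM in mARF8 2, above the other 3 libraries. UGT72E3 stood at 8.18 CPM in mARF8 3, below the others. The mean log2 difference from wild type of the alpha-expansin list was 0.61 in mARF8 3, and that of the pollen coat list was 1.01 in the same library, in each case the lowest of the 4. The mean of the carpel and ovule list was −0.84 in mARF8 2, the lowest of the 4.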

How the results depend on the processing

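Leaving out 1 library at a time, the genes called higher ran from 1311 to 4774 and those called lower from 1469 to 4015. With line 3B alone 2144 were higher, and with the low-numbered libraries 757 were higher and 568 lower. DESeq2 called 3244 higher and 3584 lower, and median-of-ratios factors 3254 and 3631. For single mARF8 libraries 1 to 4, genes past 1.5-fold were 4121, 5417, 2430 and 4114 higher and 3303, 4453, 2193 and 3447 lower, and past 4-fold 392, 685, 156 and 481 higher and 822, 1488, 325 and 830 lower, as the change of threshold implies. ARF8 kept its direction and its call under every alternative run. Of 85 named genes with a test, 34 were no longer called with the low-numbered libraries, 24 without wild type 3 and 23 without wild type 1. AGL8, not called, reversed to −0.06 with line 3B alone. The replicate numbers of the labels were not taken as pairs, and whether they mark a shared harvest was not tested. Deviations from the group means of same-numbered libraries correlated at 0.001, 0.295 and 0.165, and mARF8 4 has no partner. Libraries with different numbers correlated at −0.279 to 0.206. With a replicate block, 3486 genes were higher and 2956 lower, and 3 pollen coat genes rose in place of 6. The causes of these differences were not tested, and fits that leave out libraries also rest on fewer of them. Low counts limit genes near 0, where 3 counts are worth up to 0.827 CPM.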
